A study of Mus musculus with 21 samples.

Results

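Microglia, the resident macrophages of the brain, were profiled in mice with and without apolipoprotein E (ApoE), and the RNA of 40 genes that mark other brain cells was followed in those libraries. The markers were chosen by gene name alone, as 18 genes of neurons, 13 of astrocytes, the glia that surround synapses and vessels, and 9 of oligodendrocytes, the glia that make myelin. They are 40 of the 18718 genes named in the deposited values, which come as 2 tables, one for genotype and one for injection. All 40 were measured among the 18079 genes of the genotype table, and 33 among the 13297 genes of the injection table, where Tubb3, Syn1, Syp, Aldh1l1, Mog, Cldn11 and Sox10 were not analysed. The levels gauge how much RNA from outside microglia the libraries carried, or how much was taken up.

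The genotype table holds uninjected females by label. There are 7 wild-type libraries of C57BL/6 mice, numbered 1 to 4 and 6 to 8, and 4 ApoE knockout libraries of B6.129P2-Apoetm1Unc/J, a strain with a disrupted Apoe gene. The injection table holds males by label, all of that knockout strain, with 5 libraries after phosphate-buffered saline (PBS) and 5 after recombinant APOE (rAPOE) dissolved in PBS, so both of its groups lack the endogenous gene. Injection was into the left hemisphere, with cells taken 16 h later, and ages in every group were 12 to 18 weeks. The labels give neither the hemisphere of a library nor the animal behind a library, and p-values therefore speak only of the spread between these samples, which may be technical. QuantSeq FWD libraries, which sample polyadenylated RNA near its 3′ end, were sequenced, and levels are normalised counts, that is, reads divided by a factor for each library. Each table was normalised apart, so no level is compared between tables.

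All 18 microglial marker genes checked, Tmem119, P2ry12 and Cx3cr1 among them, had reads in every library. Libraries held 2016972 to 3054976 reads over 13592 to 15248 genes in the wild type, but 4247865 to 4969287 reads over only 8117 to 10479 genes in the knockout. The knockout libraries thus had more reads per detected gene, with a median of 99 to 171 against 19 to 38 in the wild type. The injection libraries had 704225 to 1347501 reads that covered 7601 to 11342 genes, the libraries numbered 4 and 5 being the richest in genes. Apoe itself was at 10.2, 0, 0 and 23.05 in knockout libraries 1 to 4 and at 13200 to 17160 in the wild type except library 8, where it was 1011. Wild-type library 8 also held 4.67% mitochondrial ribosomal RNA, where the rest of its group held 1.36% to 1.59%. Labels and sex-linked RNA disagreed in part. The 6 other wild-type libraries, labelled female, carried both kinds, with 11 to 36 reads of 4 Y-linked genes and Xist at 1127 to 1279. Library 8 and the knockout libraries lacked Y-linked reads, with Xist at 3291 and at 1980 to 3292. Injected libraries 1 to 4, labelled male, had 83 to 374 (PBS) and 115 to 212 (rAPOE) Y-linked reads, with Xist at 0 or 1 reads. The libraries numbered 5 of both injected groups, also labelled male, were at 979 and 718 for Xist and lacked Y-linked reads. Results are also given without library 8 or without those numbered 5 where that changes them. Without library 8, every wild-type library carried Y-linked reads and no knockout library did. Genotype and this difference in sex-linked RNA cannot be told apart in that comparison.

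Neurons are known by the proteins with which they release and receive transmitter, by neuron-specific tubulin-binding proteins and filaments, and by a few nuclear and membrane proteins. Astrocytes clear glutamate, turn it into glutamine and are coupled by gap junctions, while oligodendrocytes wrap axons in myelin built from a small set of abundant proteins. A preparation of microglia can hold such RNA because other cells, their fragments or free RNA come along, or because microglia engulfed them. Total levels do not tell these sources apart. Some of the genes are also expressed at some level outside the cell type they mark, including Glul and Slc1a3, which macrophages can express.

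Many neuronal genes carry RE1, a DNA element bound by the repressor REST, which keeps neuronal genes silent in other cells. The promoters of the markers were searched for 9 letters of each side of RE1 on both strands, in windows from 250 bases before to 50 bases after each gene start (RefSeq, GRCm38.p6). Windows were found for 28 of the 40 markers. The left side, TTCAGCACC, was in 2 of the 14 windows of 11 neuron markers (14.3%), those of Nsg2 and Syn1. It was in 0 of 12 astrocyte and 0 of 8 oligodendrocyte marker windows, of 11 and 6 markers. Of all 32851 windows, 0.371% held it. The right side, GGACAGCGC, was in none of the windows of these markers and in 0.405% of all windows. A match is a description of letters and not a binding site. In Nsg2 it starts 201 bases before the RefSeq start, but past the start that another annotation, GENCODE M21, gives at 32000463. Both stretches are printed with the left side in capitals, as they read on the strand of the gene, for Nsg2 at chr11:32000489-32000517 (plus strand) and for Syn1 at chrX:20921132-20921160 (minus strand).
Nsg2: ggctgcttttTTCAGCACCacgctctggc
Syn1: cactgtcggaTTCAGCACCgcggtcagag
Both genes were at 0 in every knockout library of the genotype table, as described below. In all, 17 of the 40 markers were so, 9 of them neuron markers, most with no match found. Syn1 was too low there to test, and a link between match and level was not tested.

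In the genotype table, most markers of neurons and astrocytes, and some of oligodendrocytes, were lower in the ApoE knockout libraries, while the astrocyte marker Glul was higher. The summed level of the 18 neuron markers was 1727 ± 589.5 (SD, n = 7) in the wild type and 88.2 ± 56.9 (SD, n = 4) in the knockout. The 13 astrocyte markers summed to 4446 ± 188 (SD, n = 7) and 4897 ± 604 (SD, n = 4), but this sum is dominated by Glul and Slc1a3. Without those, a choice made after the values were seen, it was 1199 ± 272 (SD, n = 7) in the wild type and 118 ± 83.2 (SD, n = 4) in the knockout. The 9 oligodendrocyte markers summed to 458 ± 137 (SD, n = 7) and 186 ± 79.1 (SD, n = 4). In these bulk libraries, fewer cells of a type and less RNA per cell cannot be told apart.

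**Figure D1:**
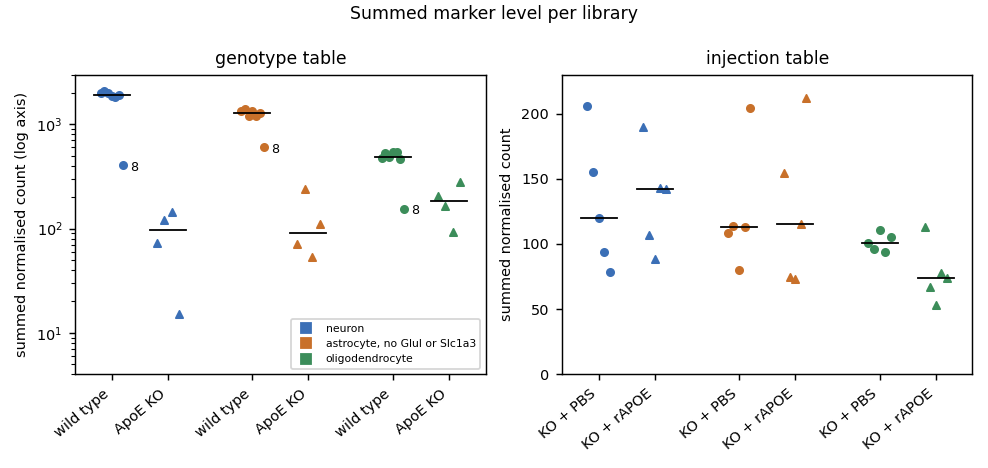
Summed normalised count of the markers of each cell type in each library (points; bars are medians), in the genotype table on a log axis (left) and the injection table on a linear axis (right). In the genotype table the knockout libraries (triangles) lie below the wild-type libraries for neuron and for astrocyte markers without Glul and Slc1a3, wild-type library 8 (labelled) lies below its group for all 3, and in the injection table the groups overlap.

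Genes with a mean normalised count of at least 10 over the table were tested with limma on log2(normalised count + 1), with passing defined as p under 0.05 after Benjamini-Hochberg adjustment over all genes tested. The added 1 makes differences of low genes too small. The mean runs over both groups, so a gene could be tested through its level in 1 group alone. Of 10401 genes tested, 25.0% passed, 19.8% lower in the knockout and 5.14% higher. Of the markers, 31 were tested and 25 passed. That is 13 of 15 neuron markers, all lower, 9 of 10 astrocyte markers, 8 of them lower and Glul higher, and 3 of 6 oligodendrocyte markers, all lower. Of those that passed, only Nrgn, Camk2a, Meg3, Slc1a2, Aldoc and Glul had a mean of at least 10 in the knockout as well. The others were tested through their wild-type level alone, so their p-values and their part of these counts are not support. The median difference was −4.55 for the neuron, −3.66 for the astrocyte and −2.80 for the oligodendrocyte markers tested, against −0.45 over all genes tested. That median moved with abundance. It was −1.21 among genes with a mean between 10 and 50, which held 15 of the markers tested, −0.18 up to 500, with 14 markers, and 0.10 above, with 2. With another test, edgeR on recovered reads, 10 neuron, 3 astrocyte and 4 oligodendrocyte markers were lower and Glul higher, beside 11.1% of all genes lower.

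**Figure D2:**
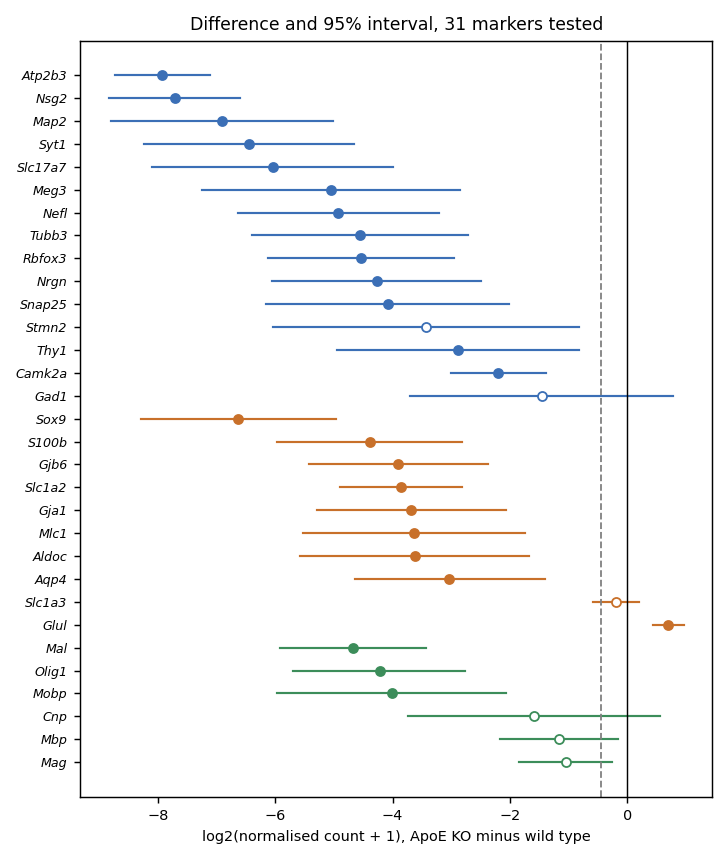
Difference in log2(normalised count + 1), knockout minus wild type, with its 95% interval for the 31 markers tested (blue neuron, orange astrocyte, green oligodendrocyte; filled where the adjusted p is under 0.05; dashed line, median of all genes at −0.45). Markers range from Atp2b3 at −7.92 to Glul at 0.70, the only one that was higher.

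Among neuron markers, Atp2b3, a calcium pump of the plasma membrane encoded on chromosome X (73503086 to 73571005, GRCm38, GENCODE M21), had the smallest adjusted p. Its level was 188 at the lowest, 253 at the median and 282 at the highest in the 7 wild-type libraries, and 0 in each of the 4 knockout libraries. It was thus at least 695-fold lower, a bound set at 3 reads over the group, and on the log2 scale fell by 7.92 (SE 0.38, limma adjusted p = 1.40e-08). Groups without any overlap, the knockout below the wild type, were seen for 10.6% of all genes tested and for 9 of the 15 neuron markers tested. Nsg2, an endosomal protein of neurons on chromosome 11 (32000463 to 32059202), was at 54.2, 272 and 301 as the lowest, median and highest wild-type value and at 0 in every knockout library. It fell by 7.71 (SE 0.52, limma adjusted p = 3.28e-07), at least 666-fold. Both genes had reads in every wild-type library, library 8 included, and in no knockout library.

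Of the genes of the neuronal cytoskeleton, Map2, which binds microtubules in dendrites, was at 5.42, 179 and 275 as lowest, median and highest wild-type value and at 0 in all knockout libraries. It was at least 485-fold lower (−6.91, SE 0.88, limma adjusted p = 5.85e-05). Wild-type library 8 was the low one. Nefl, the light neurofilament chain, was at 1.81 to 59.2 in the wild type and at 0 in the knockout (−4.92, SE 0.80, limma adjusted p = 4.39e-04). Tubb3, the neuronal beta-tubulin, was at 10.8 to 84.1 in the wild type, and in the knockout at 18.2 in library 1 and 0 in the others (−4.55, SE 0.86, limma adjusted p = 0.00146). Its groups overlapped only through wild-type library 8. Stmn2, a tubulin-binding protein of growing axons, was at 0, 37.8 and 61.1 as lowest, median and highest wild-type value and in the knockout at 30.3 in library 2 and 0 in the others. It did not pass (−3.43, SE 1.22, limma adjusted p = 0.0532), but passed without knockout library 2 (adjusted p = 0.00914) or wild-type library 8 (adjusted p = 0.00420). Those were the libraries that stood out, 1 in each group. Nefm, the medium neurofilament chain, was below the level tested, with 3.47 to 25.2 in the wild type and 0 in the knockout.

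Of the genes for transmitter release, Syt1, the calcium sensor of synaptic vesicles, was at 16.3, 215 and 274 as lowest, median and highest wild-type value. In the knockout it was at 8.91 in library 2, from 20 reads, and 0 in the others, 87.3-fold lower on the mean (−6.44, SE 0.84, limma adjusted p = 6.60e-05). The groups did not overlap. Snap25, part of the membrane fusion complex, was at 1.81 to 68.3 in the wild type and in the knockout at 12.0 in library 2 and 0 in the others (−4.08, SE 0.97, limma adjusted p = 0.00660). This call was lost with edgeR, as were those of Tubb3 and Thy1. Syp and Syn1, both of the vesicle surface, were too low to test, with 4.63 to 19.4 and 0 to 10.8 in the wild type and 0 throughout the knockout.

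Slc17a7, which loads glutamate into vesicles of excitatory neurons, was at 1.81, 110 and 143 as lowest, median and highest wild-type value and 0 in the knockout, at least 280-fold lower (−6.04, SE 0.96, limma adjusted p = 3.58e-04). Gad1, which makes the inhibitory transmitter GABA, was at 2.04, 6.93 and 21.6 as lowest, median and highest wild-type value. In the knockout it was at 60.5 in library 3, from 140 reads, and at 0 in the others, and it did not pass (−1.46, SE 1.05, limma adjusted p = 0.329). The single knockout library with reads lay above every wild-type library, so the mean was higher in the knockout, 15.1 ± 30.3 (SD, n = 4) against 8.29 ± 6.48 (SD, n = 7), while the mean of the log2 values was lower. With quantile rescaling and with edgeR the difference was positive (0.09 and 0.85), again without passing. Of the postsynaptic genes, Nrgn, which binds calmodulin, was at 21.7, 228 and 266 as lowest, median and highest wild-type value and at 18.2, 13.4, 18.6 and 0 in knockout libraries 1 to 4 (−4.27, SE 0.83, limma adjusted p = 0.00188). Camk2a, a calcium-dependent kinase, was the only neuron marker with reads in all 4 knockout libraries, at 36.9, 20.48, 10.8 and 15.1 against 52.4 to 115 in the wild type (−2.20, SE 0.38, limma adjusted p = 7.00e-04). Its groups did not overlap.

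Meg3, a long noncoding RNA found in neuronal nuclei (chromosome 12, 109541001 to 109571726), was at 25.3, 256 and 306 as lowest, median and highest wild-type value and at 36.1 and 29.0 in knockout libraries 2 and 3 and 0 in the others. It fell by 5.05 (SE 1.03, limma adjusted p = 0.00252), and only wild-type library 8 lay within the range of the knockout. Rbfox3, which encodes the nuclear antigen NeuN, was at 1.81 to 39.3 in the wild type and 0 in the knockout (−4.53, SE 0.74, limma adjusted p = 4.62e-04). Thy1, a surface protein of neurons that T cells also carry, was at 1.81 to 30.6 in the wild type and at 24.6 in knockout library 3 alone (−2.88, SE 0.96, limma adjusted p = 0.0405). Its call was the weakest of the neuron markers, lost in 14 of 20 alternatives, among them edgeR (adjusted p = 0.511), DESeq2 (0.462) and leaving out knockout library 1, 2 or 4 (highest adjusted p = 0.103).

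**Figure D3:**
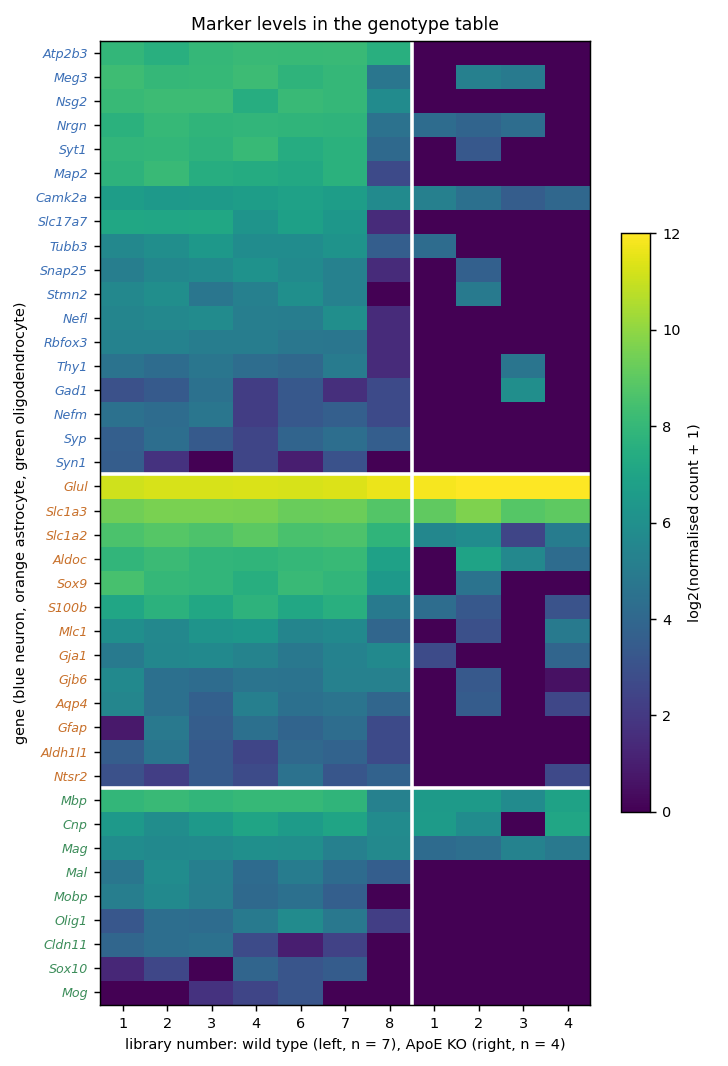
Level of each of the 40 markers, as log2(normalised count + 1) (colour), in each library of the genotype table, with neuron, astrocyte and oligodendrocyte markers from top to bottom and wild-type libraries left of the knockout libraries. The darkest cells are levels of 0, and Glul and Slc1a3 are bright in every library of both groups.

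Astrocyte markers split in 2. Sox9, a transcription factor of astrocytes (chromosome 11, 112782224 to 112787760), was at 86.7, 237 and 362 as lowest, median and highest wild-type value and at 22.7 in knockout library 2 alone. It fell by 6.63 (SE 0.78, limma adjusted p = 2.99e-05), 41.2-fold on the mean. S100b, a calcium-binding protein, was at 28.9, 148 and 214 as lowest, median and highest wild-type value and at 18.7, 8.91, 0 and 7.54 in knockout libraries 1 to 4 (−4.39, SE 0.74, limma adjusted p = 5.83e-04). Neither gene had an overlap between groups. Aldoc, a glycolytic enzyme, was at 115.5, 240 and 293 as lowest, median and highest wild-type value and at 0, 123, 48.0 and 18.2 in knockout libraries 1 to 4 (−3.62, SE 0.91, limma adjusted p = 0.00946). Knockout library 2 lay just above wild-type library 8.

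The channel and junction genes were lower as well. Gja1 and Gjb6, the gap junction proteins of astrocytes, were at 26.6 to 51.7 and 18.02 to 51.6 in the wild type and at 0 to 14.2 and 0 to 9.35 in the knockout. The differences were −3.68 (SE 0.75, limma adjusted p = 0.00261) and −3.90 (SE 0.71, adjusted p = 0.00111). Mlc1, a membrane protein of astrocyte endfeet, was at 14.4 to 79.9 in the wild type and 0 to 28.8 in the knockout (−3.64, SE 0.88, limma adjusted p = 0.00767). Aqp4, the water channel of endfeet, was at 12.0 to 43.9 in the wild type and at 0, 10.2, 0 and 4.88 in the knockout (−3.03, SE 0.75, limma adjusted p = 0.00902). With edgeR these 4 calls and that of Aldoc were lost, and that of Aqp4 also with quantile rescaling (adjusted p = 0.108) and with a replicate block over libraries 1 to 4 (adjusted p = 0.0519). Gfap, the filament protein of astrocytes, Ntsr2, a neurotensin receptor, and Aldh1l1, a folate enzyme, were below the level tested, and Gfap and Aldh1l1 were at 0 in all knockout libraries.

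The 3 genes of glutamate handling went different ways. Slc1a2, the main glutamate transporter of astrocytes (chromosome 2, 102658659 to 102790784), was at 231, 401 and 500.2 as lowest, median and highest wild-type value and at 46.5, 56.1, 4.75 and 31.9 in knockout libraries 1 to 4. It fell by 3.85 (SE 0.49, limma adjusted p = 5.46e-05), 11.3-fold on the mean, with no overlap. Slc1a3, a second glutamate transporter of astrocytes (chromosome 15, 8634124 to 8710764), was at 446, 672 and 777 as lowest, median and highest wild-type value and at 543, 818, 459 and 526.2 in knockout libraries 1 to 4. Its groups overlapped and it did not pass (−0.19, 95% interval −0.59 to 0.20, limma adjusted p = 0.473).

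Glul, glutamine synthetase (chromosome 1, 153899944 to 153909723), was at 2256, 2513 and 3158 as lowest, median and highest wild-type value and at 3682, 4682, 4282 and 4124 in knockout libraries 1 to 4. It rose by 0.70 (SE 0.12, limma adjusted p = 7.68e-04), 1.62-fold on the mean, and passed in each of 21 alternatives. All knockout libraries lay above all wild-type libraries, as for 3.67% of all genes tested. Of the microglial markers 7 of 18 tested were higher in the knockout and 1 was lower, beside 5.14% and 19.8% of all genes tested. Their summed level was 106700 to 124800 in the knockout against 87900 to 100100 in the wild type. Set against that sum, Glul was at 24.6 to 31.5 per 1000 microglial marker counts in the wild type and at 29.5, 41.7, 40.1 and 36.5 in knockout libraries 1 to 4. On this measure knockout library 1 lay within the wild-type range. The part of either cell type in the Glul reads was not tested.

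Oligodendrocyte markers differed among themselves. Mal, a myelin membrane protein, was at 10.8, 25.4 and 55.5 as lowest, median and highest wild-type value and at 0 in the knockout (−4.67, SE 0.58, limma adjusted p = 4.55e-05), at least 78.3-fold lower. Olig1, a transcription factor of the lineage, was at 3.61, 19.3 and 54.2 as lowest, median and highest wild-type value and 0 in the knockout (−4.22, SE 0.68, limma adjusted p = 4.27e-04). Mobp, a protein of compact myelin, was at 0, 20.7 and 50.7 as lowest, median and highest wild-type value and 0 in the knockout (−4.01, SE 0.91, limma adjusted p = 0.00510). Only wild-type library 8 overlapped with the knockout for Mobp, by having no reads either, and its call was lost with quantile rescaling (adjusted p = 0.0525).

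Mbp, Mag and Cnp kept reads in most knockout libraries. Mbp, myelin basic protein, was at 37.9, 243 and 278 as lowest, median and highest wild-type value and at 92.5, 90.8, 53.6 and 121 in knockout libraries 1 to 4 (−1.16, SE 0.47, limma adjusted p = 0.0871). Without wild-type library 8 it passed (−1.55, adjusted p = 7.02e-05), and the groups then did not overlap. It also passed with edgeR (adjusted p = 0.0459) and DESeq2 (adjusted p = 0.00897). Mag, an adhesion protein on the inner face of myelin, was at 36.7 to 62.5 in the wild type and at 17.0, 19.6, 38.9 and 27.5 in the knockout (−1.05, SE 0.37, limma adjusted p = 0.0522, or 0.0441 without wild-type library 8 and 0.0141 without knockout library 3). Cnp, an enzyme of the myelin cytoplasm, was at 54.2 to 128 in the wild type and at 94.2, 55.2, 0 and 134 in the knockout (−1.59, SE 1.0, limma adjusted p = 0.265). Knockout library 3 alone lacked Cnp, and without it the difference was 0.03 (adjusted p = 0.957). Mog, Cldn11 and Sox10 were below the level tested and at 0 in every knockout library.

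Levels of 0 were common among the markers of the knockout, although those libraries were the more deeply read. Of the 160 values of 40 markers in 4 knockout libraries, 66.2% were 0, against 3.93% of 280 values in the wild type. For the 31 markers with a mean of at least 10 the shares were 57.3% and 0.922%, and among all genes with such a mean 16.8% and 0.622%. In the knockout 17 markers had no reads in any library (9 neuron, 2 astrocyte, 6 oligodendrocyte), 8 in 1 library alone, 5 in 2, 4 in 3 and 6 in all 4. For these 31 markers, values above 0 had a median of 65 reads in the knockout and 62 in the wild type. All genes with a mean of at least 10 had 147 and 55. With all 40 markers, low ones included, the medians were 63.5 and 42. Few genes had only a handful of reads in the knockout libraries, 3.21% to 4.52% of detected genes with 1 to 3 reads, against 11.1% to 17.9% in the wild type. The knockout libraries thus differed from the wild type in how reads were spread over genes as well as in these markers, and its part in the differences was not tested.

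The makeup of the marker RNA is free of the scaling of a library. Out of the summed level of all markers but Glul and Slc1a3, neuron markers took 49.9% to 54.1% in wild-type libraries 1 to 4, 6 and 7, astrocyte markers 32.6% to 35.7% and oligodendrocyte markers 12.3% to 15.1%. These 6 libraries were nearly alike. In wild-type library 8 the shares were 34.8%, 51.9% and 13.4%. In the knockout, neuron markers took 21%, 23.1%, 49.7% and 3.69% in libraries 1 to 4, astrocyte markers 20.4%, 45.3%, 18.3% and 27.2%, and oligodendrocyte markers 58.6%, 31.6%, 32% and 69.1%. The 4 knockout libraries differed more from each other than the 6 wild-type libraries did, but their shares rest on few markers. In knockout libraries 1 to 4, 3, 6, 5 and 1 of 18 neuron markers had reads. Of the 11 astrocyte markers without Glul and Slc1a3, 3, 7, 2 and 8 had reads. The neuron share of library 4 rests on 34 reads of Camk2a alone. Per 1000 counts of microglial markers, the sum of these markers was 40.5 to 45.7 in the 6 wild-type libraries, 11.6 in library 8 and 2.71 to 4.67 in the knockout.

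Wild-type library 8 held less of most markers than the other wild-type libraries. Relative to the median of those 6, its neuron markers stood at a median of 9.04%, 14 of 18 below all 6. Its oligodendrocyte markers stood at 14.9%, with 6 of 9 below all 6, and its astrocyte markers at 57.4%, with 6 of 13 below. Over all genes with a mean of at least 10 the median was 91.9%, and 36.4% of genes lay below all 6. Markers of most other cell types checked were also low there. The medians were 1.62% for monocytes, 5.26% for erythrocytes, 6.86% for neutrophils, 16.4% for pericytes and fibroblasts, 44.6% for choroid plexus and 53% for border macrophages. Markers of oligodendrocyte precursors were not, at a median of 125%, although 3 of 6 lay below all 6 libraries. Microglial markers stood at a median of 134%, but ranged from Trem2 at 0.674% to Itgam at 240%, with 5 of 18 below all 6 libraries. Neuron markers were uneven there. Atp2b3 stood at 71.1% and Camk2a at 52.3%, but Map2 at 2.86% and Slc17a7 at 1.46%. Astrocyte markers ranged there from S100b at 17% to Ntsr2 at 168%, with Gja1 at 128% and Gjb6 at 165%. Without library 8, 14 of 15 neuron, 8 of 10 astrocyte and 5 of 6 oligodendrocyte markers tested were lower in the knockout, as were 23.0% of all genes tested.

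**Figure D4:**
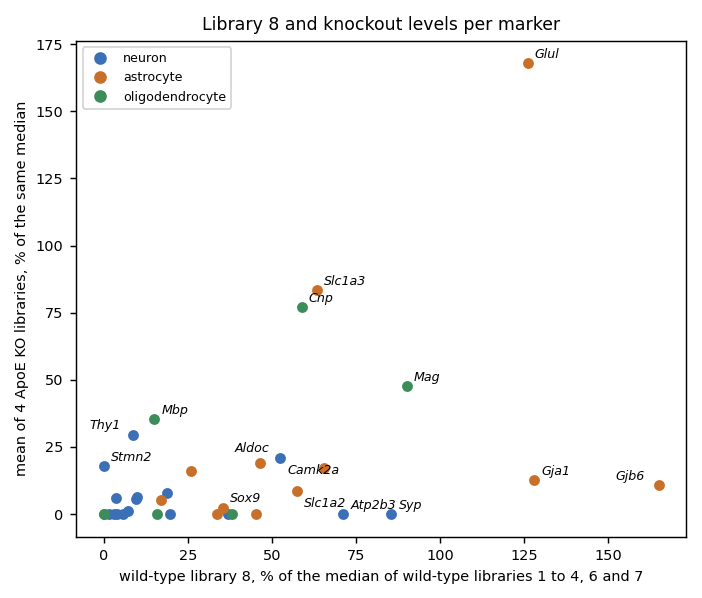
Level of each marker in wild-type library 8 (x axis) and mean level in the 4 knockout libraries (y axis), both as a percentage of the median of the other 6 wild-type libraries, for the 35 markers with such a median of at least 10. Most neuron markers lie near the origin, Atp2b3 lies at 71.1% in library 8 and at 0 in the knockout, and Glul lies above 100 on both axes.

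Further genes of the same cell types, listed apart from the 40 markers, gave like counts under the same filter. Over all genes tested, 19.8% were lower in the knockout and 5.14% higher, and the counts below stand beside those shares. Of 30 further neuron genes 21 were tested and 19 were lower (median −4.25), among them Atp1b1, a sodium pump subunit, with 673 and 14.1 as group means (−6.15, SE 0.68, limma adjusted p = 1.94e-05), and Dlg4, a postsynaptic scaffold (−3.91, SE 0.83). Of 25 further astrocyte genes 22 were tested and 20 were lower (median −3.42), among them the chaperone Clu (660 and 14.6 as group means; −6.14, SE 0.67). Of 22 further oligodendrocyte genes 8 were tested and 6 were lower (median −3.85). Those with the highest mean, transferrin (Trf; 2900 and 3074; 0.16, SE 0.25) and Qdpr, a pterin reductase (228 and 134; −0.76, SE 0.57), did not pass. No gene of these lists passed as higher. Markers of choroid plexus and ependyma moved with them, with 9 of 9 tested lower and a summed level of 428.7 to 887 in the knockout against 23770 to 83660 in the wild type. Of the markers of oligodendrocyte precursors 3 of 3 tested were lower, and of those of endothelium 7 of 12. Monocyte markers were lower in 5 of 9 tested, with a summed level of 3.46 to 224 in the knockout and 1291 to 1522 in the wild type without library 8. Most of the wild-type sum was Fn1, at means of 866 in the wild type and 0.142 in the knockout. Chil3, Ms4a4c and Ly6c2 had higher means in the knockout and the other members lower ones, so the sum does not speak for the whole list. Erythrocyte markers were lower in 1 of 5 tested, close to the share over all genes. Their summed level was 155 to 729 in the knockout and 2101 to 2937 in the wild type without library 8. Library 8 lay at 83.05 for the monocyte sum, within the knockout range, and at 130 for the erythrocyte sum, below it. Neutrophil markers were lower in 1 of 7 tested, also close to that share. Their sum had a higher mean in the knockout, 3790 ± 1933 (SD, n = 4) against 2110 ± 887 (SD, n = 7). The part of these other cell types in the differences of the 40 markers was not tested.

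In the injection table none of the markers passed between knockout brains given rAPOE and those given PBS. Of the 33 measured, 12 had a mean of at least 10 and were tested, and 0 passed with limma, with edgeR or with DESeq2, or with limma without both libraries numbered 5. Over all 7066 genes tested 0.481% passed, 0.113% lower and 0.368% higher with rAPOE. At an unadjusted p under 0.05, Syt1 was higher and Glul lower, 2 of 12 where all genes gave 11.2%. Syt1 reached the mean of 10 only through the rAPOE group, at a mean of 18.7 there and 5.99 with PBS. It was thus tested because it was high with rAPOE, and its unadjusted p is not support. The summed level of the neuron markers was 131 ± 51.3 (SD, n = 5) with PBS and 134 ± 39.0 (SD, n = 5) with rAPOE, and that of the oligodendrocyte markers 101 ± 6.87 (SD, n = 5) and 76.9 ± 22.3 (SD, n = 5). Astrocyte markers without Glul and Slc1a3 summed to 124 ± 47.2 (SD, n = 5) and 126 ± 58.7 (SD, n = 5). These 3 sums overlapped between the groups. With Glul and Slc1a3 the astrocyte sum was 1427 to 1568 with PBS (1522 ± 55.6, SD, n = 5) and 1010 to 1310 with rAPOE (1169 ± 131.5, SD, n = 5), which did not overlap.

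The precision was low for most markers. Of the values 38.8% were 0 in either group, and the 6 markers with reads in all 10 libraries were Aldoc, Glul, Mbp, Nrgn, Slc1a2 and Slc1a3. Values follow in the order of libraries 1 to 5. Syt1 was at 21.5, 2.53, 0, 5.93 and 0 with PBS and at 25.9, 26.2, 11.04, 10.9 and 19.4 with rAPOE (2.39, 95% interval 0.11 to 4.66, limma adjusted p = 0.420). Every rAPOE library held Syt1 reads, and PBS library 1 lay within their range. Nrgn was at 19.0, 41.7, 46.4, 25.7 and 19.3 with PBS and at 63.6, 7.06, 32.1, 23.3 and 26.4 with rAPOE (−0.19, 95% interval −1.56 to 1.19, limma adjusted p = 0.95). Meg3 was at 67.0, 8.85, 16, 3.29 and 15.4 with PBS and at 10.6, 0, 29.1, 28.7 and 19.4 with rAPOE (−0.38, 95% interval −2.59 to 1.82, limma adjusted p = 0.931). Both overlapped widely. Snap25 was at 12.4, 34.1, 49.6, 4.61 and 21.2 with PBS and at 28.3, 0, 0, 20.2 and 13.2 with rAPOE (−1.68, 95% interval −4.05 to 0.69). Camk2a was at 24.8, 15.2, 3.2, 13.2 and 0.644 with PBS and at 0, 30.3, 15.1, 3.88 and 34.2 with rAPOE (0.22, 95% interval −2.24 to 2.67). The intervals of Nrgn, Meg3 and Camk2a thus reach differences above 1 on the log2 scale in both directions, while that of Snap25 does so downward and that of Syt1 upward.

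Glul was at 1378, 1389, 1373, 1341 and 1172 with PBS and at 1064, 1076, 1169, 873 and 756 with rAPOE. It was 1.35-fold lower on the mean (−0.44, 95% interval −0.86 to −0.03, limma adjusted p = 0.417, unadjusted p = 0.0378, adjusted p 0.172 to 0.792 over the alternatives). The groups did not overlap, as for 1.54% of all genes tested, but PBS library 5 and rAPOE library 3 were almost level. Of the microglial markers 3 of 18 tested were lower with rAPOE and 0 higher, beside 0.113% and 0.368% of all genes tested. Their summed level was 32340 to 41020 with PBS and 20560 to 36160 with rAPOE. Per 1000 microglial marker counts, Glul was at 36.1, 33.9, 36.6, 41.5 and 30.4 with PBS and at 35.8, 40.6, 32.3, 37.7 and 36.7 with rAPOE. On that measure the groups overlapped. Slc1a3 was at 50.8 to 95.5 with PBS and 42.0 to 67.3 with rAPOE (−0.28, 95% interval −1.11 to 0.54, limma adjusted p = 0.838).

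Slc1a2 was at 68.7, 34.1, 49.6, 65.2 and 89.5 with PBS and at 91.9, 18.2, 23.1, 62.1 and 142 with rAPOE (−0.19, 95% interval −1.31 to 0.93, limma adjusted p = 0.931). Aldoc was at 4.14, 12.6, 6.40, 13.2 and 39.9 with PBS and at 40.1, 37.3, 26.1, 19.4 and 40.4 with rAPOE (1.38, 95% interval −0.18 to 2.94, limma adjusted p = 0.504). For Aldoc, PBS library 5 lay among the rAPOE libraries and the other 4 below them. Mbp was at 76.1, 30.3, 96.0, 38.2 and 32.2 with PBS and at 22.4, 51.5, 46.2, 40.4 and 21.8 with rAPOE (−0.50, 95% interval −1.58 to 0.59, limma adjusted p = 0.772). Mag was at 0 to 56.9 with PBS and 1.01 to 71.9 with rAPOE (−0.04, 95% interval −2.43 to 2.36). Cnp was at 6.40 to 24.4 with PBS and 0 to 24.9 with rAPOE (−0.80, 95% interval −2.92 to 1.33). Mal, the next by level, had reads in 2 libraries of each group and was not tested. The myelin genes therefore showed no difference that these libraries could resolve.

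The 21 markers below the level tested were sparse in both groups. Nefl was at 13.2, 40.5, 0, 11.9 and 3.86 with PBS and at 0, 0, 1.004, 0 and 0.777 with rAPOE, which is 72 and 2 reads in all. S100b had reads in 1 PBS library, 6 in all, and in 4 rAPOE libraries, 34 in all. Slc17a7, Atp2b3 and Mobp had no reads with PBS, and 12, 4 and 3 reads in 2 rAPOE libraries each. These genes were named after their values were seen. Of the further lists, 6 neuron, 11 astrocyte and 3 oligodendrocyte genes were tested, and 0 passed or had an unadjusted p under 0.05. The 2 with the highest mean per list were the neuronal motor protein Kif5a (32.7 with PBS and 58.4 with rAPOE on the mean) and Atp1b1 (16.4 and 20.3), the metallothionein Mt1 (100.3 and 106) and Sparcl1, a secreted matrix protein (53.2 and 60.8), and Trf (134 and 79.2) and Qdpr (65.5 and 37.4).

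**Figure D5:**
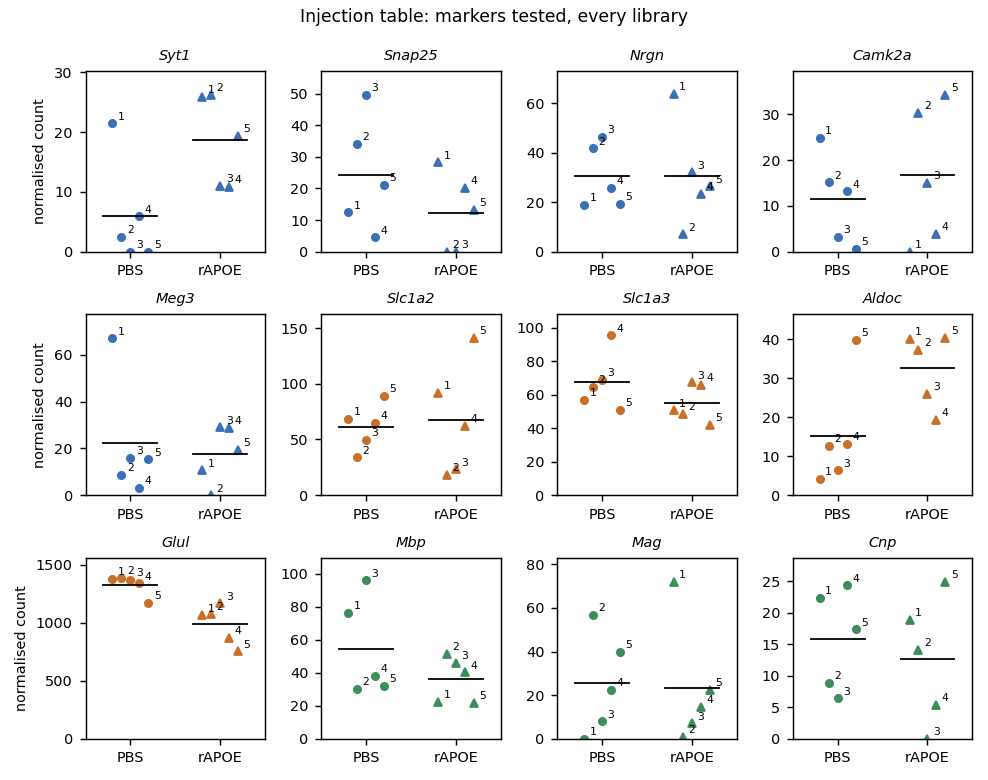
Normalised count of the 12 markers tested in the injection table, for each library (points numbered by library; bars are means). The PBS and rAPOE groups overlap for every marker except Glul, where rAPOE libraries lie at 756 to 1169 and PBS libraries at 1172 to 1389.

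Positions were taken from GENCODE M21, in which all 40 markers were found. Another gene lies over the last 1000 bases of 11 of them, where 3′ tags arise. These include Dnajc7 over Cnp, Dip2a over S100b and Nefm over Nefl, all on the opposite strand. The strand setting of the counting is not given in the sources used here, so reads of such a pair may not have been told apart.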

How the data were processed

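QuantSeq 3′ FWD libraries of 21 microglial samples were sequenced on an Illumina MiniSeq, per the labels' protocols. The submitters' processing notes name HTSeq, DESeq2, Picard 1.8.4, R 3.2.3 and GRCm38.p3. For the aligner and annotation, nothing is given in the sources used here. The authors deposited 1 table per experiment with a scaled signal for each gene (normalised count). In each library all values were whole multiples of 1 step (100% within 0.01), so reads were recovered as value over step. Reads carry no molecular identifiers, so bounds cover counting error only. Of 18221 genotype entries, 22 with spreadsheet dates for names (0.0966% of the summed values) and 120 at 0 throughout were left out.

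Values were tested as log2(normalised count + 1) with limma 3.58.1 (intensity trend, R 4.3.3) where the mean reached 10, Benjamini-Hochberg adjusted over each whole table, threshold 0.05. The code was tested on simulated counts. Where a group was at 0, the fold is a bound at 3 reads over the group. No 2 libraries of a group were identical (lowest chi-square per degree of freedom 3.91). Alternatives were other pseudocounts, filters and scalings, edgeR 4.0.16 and DESeq2 1.42.0 on recovered reads, a replicate block, and leaving out libraries.

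The 40 markers, the further lists and the tests were chosen with earlier results of these data known. Named with values are, per comparison and cell type, the 4 markers with the highest mean, the 4 passing ones with the smallest adjusted p, and those not passing where more than 3 in 4 passed. Of the further lists, the 2 genes with the highest mean are named, except 1 that is not reported here. Other markers are given by shorter values to account for all 40.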

Additional observations from a re-analysis of the deposited data

Results flagged for a closer look

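In groups of 4 to 10 libraries, a library was singled out where its gap to the nearest other one exceeded Dixon's 95% limit as a share of the range, for the sums and for the markers chosen by rule. This gave 18 cases in 74 groups tested, where chance gives about 1 in 20 for independent values with no excess of zeros. These groups are neither, since sums hold their own markers, and 4 of the cases are knockout groups with 3 libraries at 0, where any reads in the fourth single it out.

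Wild-type library 8 made up 9 of them, each time as the lowest of its group. Its summed level was 404.4 for neuron markers (others 1831 to 2075), 603 for astrocyte markers without Glul and Slc1a3 (others 1206 to 1404) and 155.3 for oligodendrocyte markers (others 467.3 to 543.2). Single markers were Nrgn at 21.67, Meg3 at 25.28, Syt1 at 16.25, Mbp at 37.91, Aldoc at 115.5 and S100b at 28.89.

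In the knockout, library 2 alone held Sox9 (22.71), Stmn2 (30.28) and Syt1 (8.906), and library 3 alone held Gad1 (60.51), the others being at 0. Wild-type library 3 was the highest of its group for Gad1 at 21.62.

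PBS library 5, which also went against its sex label, was the highest of its group for astrocyte markers without Glul and Slc1a3 (204.6) and for Aldoc (39.90) and the lowest for Glul (1172). PBS library 1 was the highest for Meg3 at 67.02.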

How the results depend on the processing

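In the knockout comparison 25 markers passed, and 24 to 28 with a library left out (neuron lower 12 to 14, astrocyte lower 8 in each case, oligodendrocyte lower 3 to 5, the 5 without wild-type library 8). With a mean of at least 50, which tests fewer genes, 13 passed (8 neuron, 4 astrocyte and 0 oligodendrocyte markers lower). With edgeR 3 astrocyte markers were lower and 18 markers passed in all. Oligodendrocyte markers lower were 5 without a filter and 5 with DESeq2, and the cause was not tested. Over all genes 2596 passed, but 1289 at a mean of at least 50 and 1658 with edgeR. The split was 535 higher and 2061 lower, against 696 and 1330 with quantile rescaling, which moved the median of all genes from −0.45 to −0.07, and 499 and 1159 with edgeR. In the injection comparison 0 markers passed under every alternative run, those with libraries 1 to 3 or 4 and 5 alone having been added after seeing the data. Over all genes 34 passed there, 16 to 74 with a library left out, 64 with a pseudocount of 5, 115 with DESeq2, 12 without the intensity trend, 11 without both libraries numbered 5, 6 with libraries 1 to 3 and 192 with libraries 4 and 5. Deviations of same-numbered libraries correlated at −0.03 to 0.02 in the genotype table. In the injection table they did so at 0.19 for number 4 and 0.11 for number 5, each best with its own number, but at −0.00 to 0.02 for the others, so numbers were not taken as pairs. With a replicate block over libraries 1 to 4, 25 markers and 1781 genes passed in the knockout comparison, and with a block 0 markers and 52 genes in the injection comparison. Counting depth limits most markers of the injection table, at a median of 16 to 18 reads per value above 0.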
